A study of Mus musculus with 9 samples.

Results

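The 10 genes described here, Fos, Fosb, Jun, Junb, Egr1, Egr2, Atf3, Ier2, Dusp1 and Nr4a1, are immediate early response genes. They were chosen by name, with earlier results of these data known. All 10 were measured and were among the 19698 named genes that passed the filter on low signal. Each had 1 named probe, and each probe was well above background on all 9 arrays, so none of their levels is a bound. Expression was measured on single-color Agilent arrays with total lung RNA of male C57BL/6 mice. There were 4 arrays labeled control and 5 labeled as irradiated tissue of the left lung. The labels give an age of 10 weeks for both groups, which may be the age at irradiation and not at tissue collection. The radiation dose, the part of the lung and the time after exposure are not in the labels, and the irradiated arrays may differ from each other in each of them. RNA of replicate experiments was pooled before labeling, as the methods of the study state, and nothing says that the arrays of a group came from separate animals, so p-values measure only the spread between these pooled samples. The labels of both groups carry the same note of anesthesia with zoletil and rompun during irradiation, and whether the control mice received it is not stated.

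Immediate early genes are transcribed quickly after a stimulus because the factors that switch them on are already present in the resting cell. Growth factors, stress and DNA damage reach them through mitogen-activated protein kinases, which act on SRF with its ternary complex partners and on CREB, and their products then start or restrain a later set of genes. Their messenger RNAs are short-lived, and in most tissues the response is a brief pulse. In bulk lung RNA, fewer cells of a type and less RNA per cell cannot be told apart.

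The promoter sequences are given for 4 of these genes as examples, and Egr2 and Nr4a1 are the members with the smallest p-values below. All 4 hold letter matches to elements through which such genes are usually switched on, as do Fosb, Junb and Atf3. RefSeq promoter windows (build GRCm38.p6, 250 bases before the gene start to 50 bases from it) were found for 8 of the 10 members by symbol. Capitals mark the CArG box, which SRF binds, the cyclic AMP response element (CRE, TGACGTCA), its core (TGACG, which also lies inside the full CRE) and the EGR site (GCGNGGGCG), searched on both strands. Each sequence reads 5′ to 3′ along the strand of its gene. They are Fos (chr12:85473640-85473939, plus strand), Egr2 (chr10:67537619-67537918, plus strand), Nr4a1 (chr15:101266596-101266895, plus strand) and Dusp1 (chr17:26508423-26508722, minus strand).
Fos: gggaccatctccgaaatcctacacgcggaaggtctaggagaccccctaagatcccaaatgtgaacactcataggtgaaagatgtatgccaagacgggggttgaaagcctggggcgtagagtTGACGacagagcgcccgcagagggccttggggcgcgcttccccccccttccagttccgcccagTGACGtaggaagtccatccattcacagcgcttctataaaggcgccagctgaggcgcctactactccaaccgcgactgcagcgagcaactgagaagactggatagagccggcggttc
Egr2: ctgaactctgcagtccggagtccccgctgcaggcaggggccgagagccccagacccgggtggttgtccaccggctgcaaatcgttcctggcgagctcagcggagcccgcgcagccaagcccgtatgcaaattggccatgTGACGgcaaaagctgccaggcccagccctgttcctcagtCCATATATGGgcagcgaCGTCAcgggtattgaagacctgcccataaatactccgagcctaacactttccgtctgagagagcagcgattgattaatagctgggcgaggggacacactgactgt
Nr4a1: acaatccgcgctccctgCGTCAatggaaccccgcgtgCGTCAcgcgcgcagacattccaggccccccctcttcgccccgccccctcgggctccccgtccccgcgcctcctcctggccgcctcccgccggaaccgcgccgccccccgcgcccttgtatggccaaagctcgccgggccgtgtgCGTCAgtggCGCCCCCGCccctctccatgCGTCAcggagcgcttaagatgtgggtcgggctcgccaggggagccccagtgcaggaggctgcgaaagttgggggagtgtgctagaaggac
Dusp1: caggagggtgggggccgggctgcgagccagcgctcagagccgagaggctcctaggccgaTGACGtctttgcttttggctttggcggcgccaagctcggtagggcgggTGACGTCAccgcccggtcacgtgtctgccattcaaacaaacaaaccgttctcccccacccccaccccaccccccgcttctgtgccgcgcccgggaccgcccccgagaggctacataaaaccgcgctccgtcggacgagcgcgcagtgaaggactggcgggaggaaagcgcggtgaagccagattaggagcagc

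The CRE core was found in the windows of 7 of the 8 members (Fos, Fosb, Junb, Egr2, Atf3, Dusp1 and Nr4a1) and for 23% of the 27025 genes of the table, counted by gene in the same way. The full CRE was found for 1 member, Dusp1, against 2.03% of all genes. A CArG box was found for 1 member, Egr2, whose gene has several start sites in the table, against 1.81% of all genes. The EGR site was found for 2 members, Fosb and Nr4a1, against 6.27% of all genes. The AP-1 site (TGANTCA) was found for 0 of the 8 members and for 8.97% of all genes. These are counts of letters in short windows, of which a gene can have several, and they say nothing about binding or about elements farther away.

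In the comparison of irradiated with control lung, none of the 10 genes passed the threshold, and the members did not move in 1 direction. Egr2 and Junb were higher on 4 of the 5 irradiated arrays than on any control array, and Nr4a1 was lower on 4 of the 5 than on any control array. Fos, Egr1, Atf3 and Dusp1 varied among the arrays of a group by as much as or more than between the groups. With limma's moderated test, adjusted by Benjamini and Hochberg's method over the 39303 probes that passed the filter, 0 of the 10 had an adjusted p under 0.05, against 0.416% of all genes. The unadjusted p was under 0.05 for 3 of the 10 (Junb, Egr2 and Nr4a1), against 12.3% of all genes. The irradiated arrays lay wholly on one side of the control arrays for 0 of the 10, against 5.15% of all genes, and at least 4 of the 5 irradiated arrays lay beyond every control array for 3 of the 10, against 15.4% of all genes. The median log2 difference was 0.09 over the 10 and 0.01 over all genes, and it was -0.04 without control array 2, -0.02 without control array 1 and 0.37 without control array 4. The median size of the difference, whatever its sign, was 0.27 over the 10 and 0.16 over all genes on the log2 scale.

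**Figure D1:**
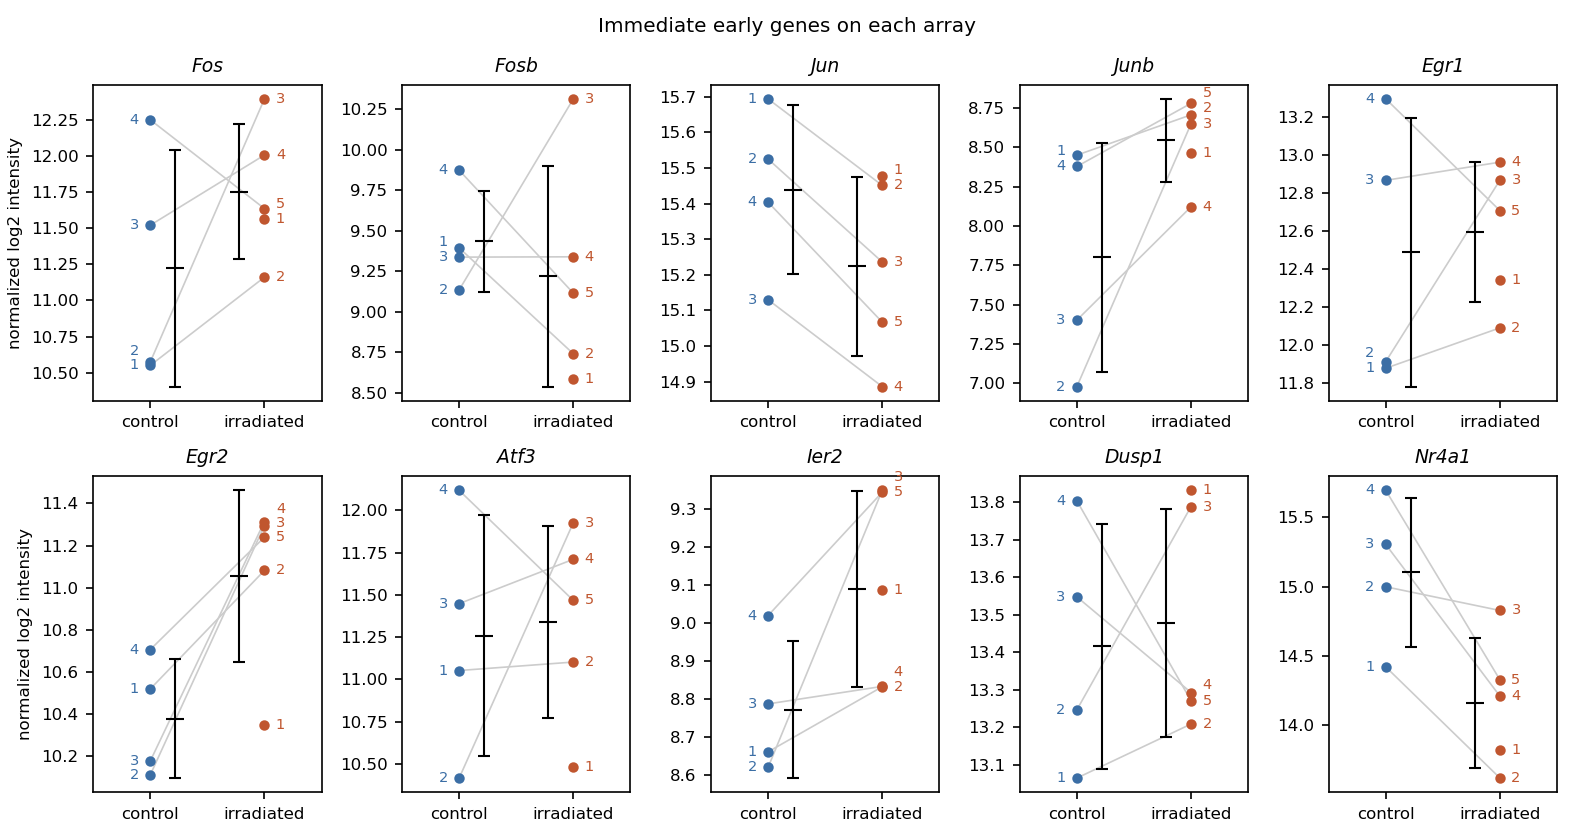
Normalized log2 intensity (vertical axis, a scale of its own for each gene) of the 10 immediate early genes on the 4 control and 5 irradiated arrays. Numbered points are arrays, black bars are the mean and SD of a group, and gray lines join arrays that lay next to each other in scan position; the groups overlap in every panel, with Egr2, Junb and Nr4a1 the nearest to separation.

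The labels and files name no batch, but the position of the spots on the scanner image brought together 4 pairs of a control and an irradiated array, namely control 1 with irradiated 2, control 2 with irradiated 3, control 3 with irradiated 4 and control 4 with irradiated 5. Irradiated array 1 had no such partner. These are called scan pairs here, and the differences within them are given beside the difference over all arrays, since arrays of a pair deviated together across genes (correlation of deviations 0.18 to 0.43). Levels below are normalized log2 intensities, listed from array 1 onward, and a difference is irradiated minus control on the log2 scale with its limma SE. The exact two-sided permutation test over the 126 ways to divide the arrays cannot give a p below 0.00794, and it was run on the 10 members, for which it is given, and on the 125 genes of the related lists.

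Fos and Fosb encode partners that form the AP-1 transcription factor with Jun proteins. Fos was at 10.55, 10.57, 11.52 and 12.25 on the control arrays and at 11.57, 11.16, 12.40, 12.01 and 11.64 on the irradiated arrays. The lowest control arrays, 1 and 2, lay below all irradiated arrays, whereas control array 4 lay above all of them except irradiated array 3. The difference was 0.53 ± 0.37 (SE), a 1.44-fold higher mean, with a limma adjusted p of 0.728 and an exact permutation p of 0.262. Within the scan pairs it was 0.61, 1.82, 0.49 and -0.61, so the direction was not shared. It was 0.31 without control array 1 or control array 2 and 0.87 without control array 4. In the deposited normalized table it was 0.32. Fos is the member with repeated spots, 10 on each array, and their SD on an array was 0.04 to 0.07 in log2 units against 0.82 between the control arrays and 0.47 between the irradiated arrays, so spots of one array lay far closer together than arrays of one group.

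Fosb was at 9.39, 9.14, 9.34 and 9.87 on the control arrays and at 8.59, 8.74, 10.31, 9.34 and 9.12 on the irradiated arrays. Irradiated array 3 was the highest of all 9 arrays and irradiated arrays 1 and 2 were the lowest, so the irradiated values surrounded the control values. The difference was -0.22 ± 0.32 (SE, adjusted p = 0.910 by limma, exact permutation p = 0.571). Its size rests on single arrays, since it was -0.49 without irradiated array 3, -0.32 without control array 2, -0.10 without irradiated array 2, -0.07 without control array 4 and -0.06 without irradiated array 1.

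Jun and Junb encode the Jun side of AP-1, of which Junb is often a weaker activator that can restrain Jun. Jun was at 15.69, 15.53, 15.13 and 15.40 on the control arrays and at 15.48, 15.45, 15.24, 14.89 and 15.07 on the irradiated arrays. The groups overlapped over most of their range, and the difference of -0.21 ± 0.15 (SE) had a limma adjusted p of 0.729 and an exact permutation p of 0.230. It was -0.13 without control array 1 or irradiated array 4. Within the 4 scan pairs Jun was lower in the irradiated array each time, by differences of -0.24, -0.29, -0.24 and -0.34, and the values of the pairs thus lay closer together than those of any other member. A shared direction in all 4 pairs was found for 35.2% of all genes. With the scan pair as a fixed block, the limma adjusted p was the lowest of all settings, 0.0526, and did not pass. That fit called 3.82% of all genes.

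Junb was at 8.45, 6.98, 7.40 and 8.38 on the control arrays and at 8.46, 8.71, 8.65, 8.12 and 8.78 on the irradiated arrays. The irradiated values covered a narrow range, whereas the control values fell into a low pair, arrays 2 and 3, and a high pair, arrays 1 and 4, that reached into the irradiated range. The difference was 0.74 ± 0.31 (SE), a 1.67-fold higher mean (adjusted p = 0.451 by limma, exact permutation p = 0.0635), and 0.26, 1.67, 0.72 and 0.40 within the scan pairs. Without control array 2, its lowest value, the difference was 0.47. Among the controls its SD of 0.73 was above that of 92.4% of all genes.

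Egr1 and Egr2 encode zinc finger transcription factors that bind the EGR site. Egr1 was at 11.88, 11.91, 12.87 and 13.30 on the control arrays and at 12.34, 12.09, 12.87, 12.96 and 12.71 on the irradiated arrays. All 5 irradiated values fell inside the range of the control values. The difference was 0.11 ± 0.31 (SE, adjusted p = 0.972 by limma, exact permutation p = 0.746), and it was -0.10 without control array 1 and -0.09 without control array 2.

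Egr2 was at 10.52, 10.11, 10.18 and 10.71 on the control arrays and at 10.35, 11.08, 11.30, 11.31 and 11.24 on the irradiated arrays. Irradiated arrays 2 to 5 lay close together and above every control array, whereas irradiated array 1 lay within the control range. The difference was 0.68 ± 0.21 (SE), a 1.60-fold higher mean, with a limma unadjusted p of 0.0102, an adjusted p of 0.275 and an exact permutation p of 0.0397. The 4 scan pairs each gave a higher irradiated value, by 0.56, 1.19, 1.14 and 0.53. Without irradiated array 1 the difference was 0.85 and Egr2 passed the threshold (adjusted p = 0.0329 by limma), in a fit that called 1.65% of all genes. With the scan pair as a random block it was 0.78 (adjusted p = 0.017 by limma), in a fit that called 9.45% of all genes. With the pair as a fixed block, which leaves out irradiated array 1, it was 0.85 and did not pass (adjusted p = 0.0528 by limma), in a fit that called 3.82% of all genes. In the deposited normalized table the difference was 0.38 (adjusted p = 1 by limma). On irradiated array 1 the cardiac muscle markers (6 of 6 measured, well above background on every array) had a summed level of 13.5 in log2 units, against 17.2 to 18.2 on the control arrays, and the part of tissue composition in the low Egr2 value was not tested.

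Nr4a1 encodes an orphan nuclear receptor that acts in macrophages and endothelium and in the response to stress. It was at 14.42, 15.00, 15.30 and 15.69 on the control arrays and at 13.82, 13.62, 14.83, 14.21 and 14.33 on the irradiated arrays. Only irradiated array 3 reached the control range, in which it exceeded control array 1 alone. The difference was -0.94 ± 0.29 (SE), a 1.92-fold higher mean in control lung, with a limma unadjusted p of 0.00823, an adjusted p of 0.255 and an exact permutation p of 0.0397. The irradiated array was the lower one in each scan pair, with differences of -0.80, -0.17, -1.09 and -1.37. With the scan pair as a random block the difference was -0.89 (adjusted p = 0.0246 by limma), which passed the threshold in that fit of 9.45% of all genes. With the pair as a fixed block it was -0.86 and did not pass (adjusted p = 0.0923 by limma), in a fit that called 3.82% of all genes. Leaving out single arrays gave differences from -1.17 to -0.75, none of which passed.

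Atf3 encodes a stress-induced factor of the ATF/CREB family that mostly represses its targets. It was at 11.05, 10.42, 11.45 and 12.12 on the control arrays and at 10.49, 11.10, 11.93, 11.71 and 11.47 on the irradiated arrays. Its irradiated values all lay between the lowest and the highest control value, and the difference was 0.08 ± 0.36 (SE, adjusted p = 0.987 by limma, exact permutation p = 0.833). It was -0.20 without control array 2, -0.07 without irradiated array 3 and -0.01 without irradiated array 4.

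Ier2, a small nuclear protein whose gene is named for its immediate early response, was at 8.66, 8.62, 8.79 and 9.02 on the control arrays and at 9.09, 8.83, 9.35, 8.83 and 9.34 on the irradiated arrays. All 5 irradiated values lay above 3 of the 4 control values, and control array 4 lay within the irradiated range. The difference was 0.32 ± 0.16 (SE), a 1.25-fold higher mean (adjusted p = 0.569 by limma, exact permutation p = 0.0952), with a higher irradiated value in 4 of 4 scan pairs.

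Dusp1 encodes a phosphatase that inactivates mitogen-activated protein kinases and so ends the signal that induced it. It was at 13.06, 13.25, 13.55 and 13.80 on the control arrays and at 13.83, 13.21, 13.79, 13.29 and 13.27 on the irradiated arrays. The groups covered nearly the same range, and the difference was 0.06 ± 0.19 (SE, adjusted p = 0.972 by limma, exact permutation p = 0.762). It was -0.05 without control array 1, -0.03 without irradiated array 1 and -0.02 without irradiated array 3.

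**Figure D2:**
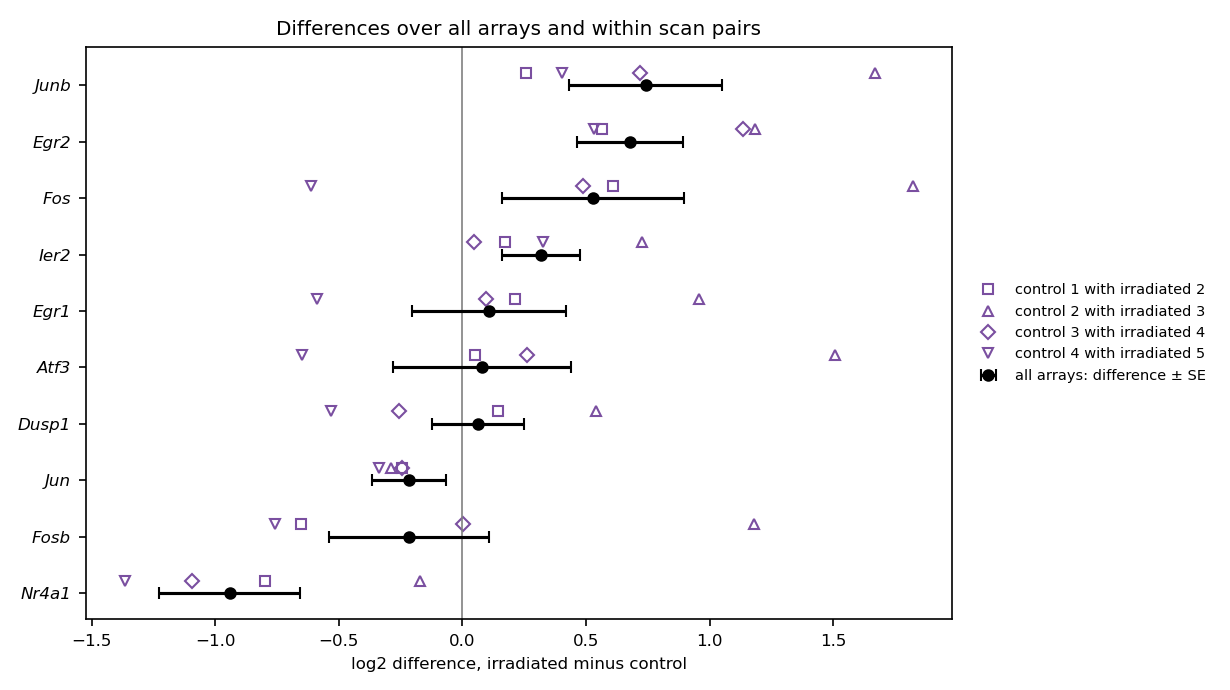
Log2 difference between irradiated and control arrays (horizontal axis) for the 10 genes, with the limma difference over all 9 arrays and its SE in black and the 4 scan pairs as open symbols. Junb, Egr2 and Ier2 lie above 0 and Jun and Nr4a1 below 0 in all 4 pairs, whereas the pairs of Fos, Egr1, Atf3, Dusp1 and Fosb fall on both sides.

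Over the scan pairs, 5 of the 10 genes differed in the same direction in all 4 pairs, namely Junb, Egr2 and Ier2 upward and Jun and Nr4a1 downward. The same was found for 35.2% of all genes, and with 10 genes a count of 5 is near that background. The pair of control array 2 and irradiated array 3 gave the highest difference of the 4 pairs for 9 of the 10 genes (all but Jun), against 33.5% of all genes. That pair joins the control array with the lowest mean level of the members to the irradiated array with the highest.

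Among the controls, most of the members shared their highest array, whereas the lowest control array and the highest and lowest irradiated arrays were shared by at most 5 of the 10. Relative to the control mean, the mean of the 10 genes was -0.16, -0.38, 0.02 and 0.52 on control arrays 1 to 4 and -0.13, -0.13, 0.53, 0.14 and 0.16 on irradiated arrays 1 to 5, in log2 units. Control array 4 thus stood as high as irradiated array 3, and the spread within a group was larger than the difference between the groups. Control array 4 was the highest of the control arrays for 8 of the 10 members (all but Jun and Junb), against 23.8% of all genes. Irradiated array 3 was the highest of the irradiated arrays for 5 of the 10, Fos, Fosb, Atf3, Ier2 and Nr4a1, against 18.8% of all genes. Control arrays 3 and 4 both lay above control arrays 1 and 2 for 6 of the 10, Fos, Egr1, Atf3, Ier2, Dusp1 and Nr4a1, against 15.2% of all genes. These array patterns were picked after the values were seen and are given as descriptions.

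Fos, Atf3, Egr1 and Junb were the least even members among the control arrays, with an SD above that of 93.9%, 92.1%, 92.0% and 92.4% of all genes. Among the irradiated arrays, Fosb (89.3%), Atf3 (84.9%), Nr4a1 (79.1%) and Fos (79.0%) ranked highest by SD. Ier2 was the most even member among the control arrays, with an SD of 0.18 that exceeded that of 31.5% of all genes. The median SD of the 10 genes was 0.43 among the control and 0.39 among the irradiated arrays, against 0.25 for all genes in either group.

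Across the 9 arrays, Atf3 (Pearson's r = 0.88), Fos (0.85) and Egr1 (0.81) followed the mean of the other 9 members most closely. Fosb (0.69), Ier2 (0.64), Dusp1 (0.53) and Egr2 (0.45) followed it less closely, and Junb (0.28) and Nr4a1 (0.23) least. Jun ran the other way (r = -0.50), with its highest values on control arrays 1 and 2, where most other members were low. These correlations describe 9 arrays that share normalization and scan pairs, and no test was made of them.

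**Figure D3:**
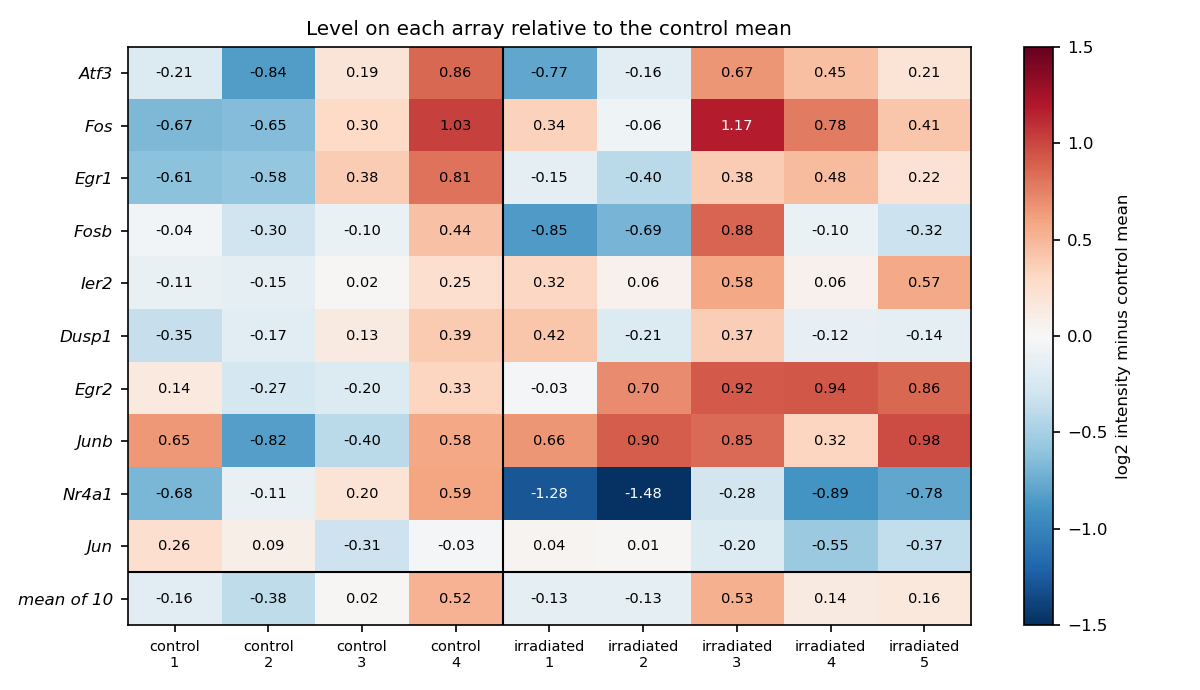
Level of each gene on each array minus its control mean, in log2 units, as color and number, with control arrays on the left and irradiated arrays on the right of the vertical line. Rows run from the gene most like the mean of the others (Atf3) to the least like it (Jun), and the bottom row, the mean of the 10, is highest on irradiated array 3 (0.53) and control array 4 (0.52).

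Among 15231 other genes detected well above background on each of the 9 arrays, those most like the mean of the 10 members were Ermp1 (r = 0.88), Nudt19 (0.88), Fbxl16 (0.87), Surf2 (0.87) and Scg3 (0.86). Their own differences between the groups were 0.03 to 0.13 in log2 units with limma adjusted p-values of 0.879 to 0.994. With so many candidates and 9 arrays, correlations of this size describe likeness alone.

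The genes that surround the immediate early genes in their pathway were counted from 7 lists in the same fit, which together held 125 measured genes. Past the threshold were 5 of them, all higher in irradiated lung, of which 4 were p53 targets and 1 was a growth factor, against 0.416% of all genes. By limma's unadjusted p, 45 were higher and 4 lower at a p under 0.05, against 1451 higher and 980 lower of the 19698 genes (12.3% together). The groups did not overlap for 22 higher and 2 lower, against 668 higher and 345 lower of all genes (5.15% together). By list these were 4 higher and 1 lower other transcription factors, 2 feedback regulators higher, 4 effectors higher and 1 upstream kinase lower. The rest were 4 heat shock genes, 2 of the integrated stress response and 6 p53 targets, all higher. Beside the direction counts given for each list below stand 10225 higher and 9473 lower over all genes, and beside each count past the threshold the same 0.416%, at which lists of this size would mostly hold 0 calls. The number of calls moved with single arrays, since 14 passed without irradiated array 1 (1.65% of all genes), 3 without irradiated array 5 (0.0812% of all genes), and 2, Areg and Gdf15, without any other single array (0.0254% to 0.127% of all genes). With the scan pair as a block, 18 passed where it was fixed (3.82% of all genes) and 44 where it was random (9.45% of all genes). Except where stated, genes named below were picked for passing the threshold or for groups that did not overlap. The separation told for them follows from that choice.

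Other early transcription factors, 25 of them, had 0 past the threshold, 18 higher and 7 lower, and a median log2 difference of 0.17. Myc, which drives growth and proliferation, lay between 8.69 and 9.17 in the controls and between 9.53 and 10.17 in the irradiated group. The groups did not overlap, and the difference of 0.79 ± 0.17 (SE) had a limma adjusted p of 0.0999. The same separation was seen for Maff, a small Maf protein, at 11.14 to 11.65 against 11.78 to 12.70 (adjusted p = 0.229 by limma), and for Cebpd, an inflammatory C/EBP factor, at 15.72 to 16.02 against 16.11 to 16.85 (adjusted p = 0.102 by limma). Npas4, an activity-dependent factor best known in neurons, lay lower, at 7.04 to 7.95 on the irradiated arrays against 7.95 to 8.80 on the control arrays, and the groups nearly touched (adjusted p = 0.431 by limma).

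Feedback regulators, 27 of them, had 0 past the threshold, 21 higher and 6 lower, and a median log2 difference of 0.10. Gadd45g, a stress-response gene, lay between 13.60 and 14.28 in the controls and between 14.28 and 14.97 in the irradiated group, which nearly touched (adjusted p = 0.216 by limma). Ier5, a regulator of the heat shock factor HSF1, was at 9.91 to 10.32 and 10.42 to 10.64 (adjusted p = 0.205 by limma). Upstream kinases and factors, 26 of them, had 0 past the threshold, 8 higher and 18 lower, and a median of -0.02. Mapk9, which encodes the kinase JNK2, was at 12.17 to 12.31 on the control and 11.96 to 12.12 on the irradiated arrays, a difference of -0.18 ± 0.07 (SE, adjusted p = 0.437 by limma).

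Secreted factors and other effectors, 22 of them, had 21 higher and 1 lower and a median log2 difference of 0.55. By limma's unadjusted p, 13 of the 22 were higher at a p under 0.05 and 0 lower (12.3% of all genes in either direction), and 1, Areg, passed the threshold (0.416% of all genes). Areg, which encodes the EGF receptor ligand amphiregulin, was at 9.07, 9.18, 8.41 and 8.92 on the control arrays and at 10.83, 11.44, 12.04, 11.64 and 11.69 on the irradiated arrays. Every irradiated array exceeded every control array by a wide gap, and the difference was 2.63 ± 0.24 (SE, adjusted p = 0.00668 by limma). Ptgs2, which encodes the cyclooxygenase of inflammation, was at 8.71 to 9.95 and 10.07 to 10.80, a difference of 1.06 ± 0.26 (SE, adjusted p = 0.157 by limma). Odc1, the entry enzyme of polyamine synthesis, was at 13.04 to 13.26 and 13.40 to 13.46 (adjusted p = 0.230 by limma).

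The cytokine genes Il6 and Cxcl1, named here after their values were seen, had groups that overlapped through irradiated array 1. Il6 was at 6.50 to 7.62 on the control arrays, at 7.01 on irradiated array 1 and at 9.48, 10.44, 10.43 and 10.30 on irradiated arrays 2 to 5. Cxcl1, a neutrophil attractant, was at 5.28 to 6.51 on the control arrays, at 6.24 on irradiated array 1 and at 9.19, 8.42, 9.28 and 9.71 on the others. Egr2 likewise had a control-like irradiated array 1 and 4 high irradiated arrays, a likeness picked after the values were seen. Irradiated array 1 was the lowest irradiated array for 3 members, Fosb, Egr2 and Atf3, and for 18.6% of all genes. Areg, Myc and the named p53 targets were also high on irradiated array 1, which the rule that named them favored.

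**Figure D4:**
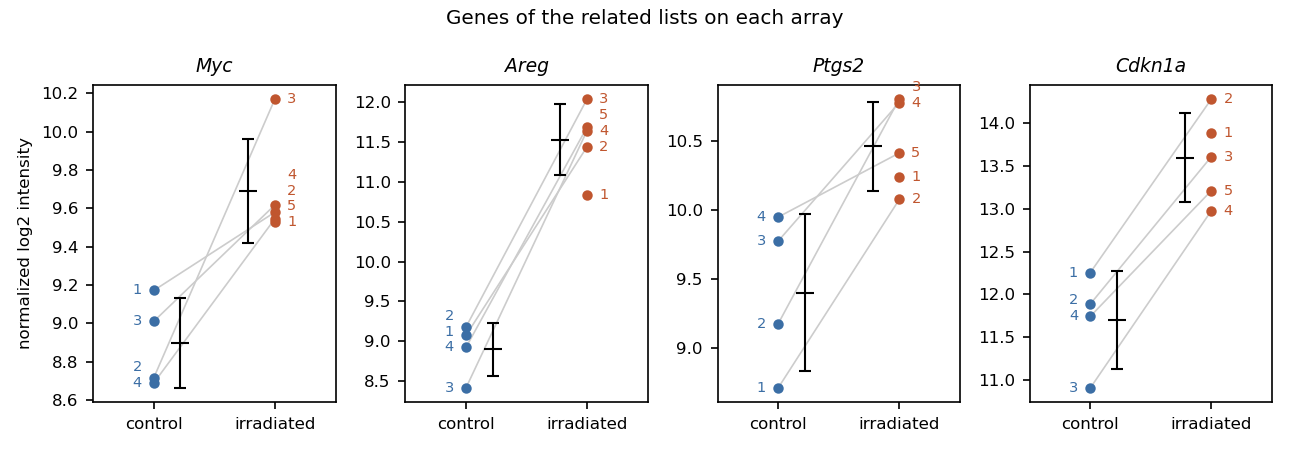
Normalized log2 intensity (vertical axis, a scale of its own for each gene) of Myc, Areg, Ptgs2 and Cdkn1a on the 4 control and 5 irradiated arrays. Numbered points are arrays, black bars the mean and SD of a group and gray lines the scan pairs; in each panel all irradiated arrays lie above all control arrays, which the rule that picked these genes fixed, and the same holds in either direction for 5.15% of all genes.

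Stress programs known to run beside the immediate early response were counted in the same way. Heat shock genes had 9 of 10 higher, 0 past the threshold and a median log2 difference of 0.31. The chaperone genes Hsph1 (12.78 to 13.48 on the control and 13.55 to 14.43 on the irradiated arrays, adjusted p = 0.112 by limma) and Dnajb1 (14.50 to 14.98 and 15.19 to 15.66, adjusted p = 0.0763 by limma) did not overlap between the groups. Hsp90aa1 (14.81 to 15.30 and 15.34 to 15.65, adjusted p = 0.228 by limma) and Hspe1 (14.02 to 14.19 and 14.28 to 14.42, adjusted p = 0.242 by limma) were separate as well. Genes of the integrated stress response had 6 of 7 higher and 0 past the threshold, with Ddit3, which encodes CHOP, at 10.01 to 10.82 and 10.83 to 11.19 (adjusted p = 0.301 by limma) and the asparagine synthetase gene Asns at 12.73 to 12.91 and 12.96 to 13.22 (adjusted p = 0.260 by limma).

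The p53 targets held 4 of the 5 calls of these lists, against 0.416% of all genes called, with 8 of 8 higher and a median log2 difference of 1.07. Like the other lists, this one was chosen with earlier results of these data known, so its counts are descriptions. Ccng1 (adjusted p = 0.0763 by limma), Trp53inp1 (0.0994), Bax (0.342) and Mdm2 (0.401) did not pass, and the groups of Bax and Mdm2 overlapped. Gdf15, a stress cytokine, was at 8.74 to 9.24 on the control and 12.36 to 13.10 on the irradiated arrays, a difference of 3.64 ± 0.17 (SE, adjusted p = 5.23e-05 by limma). Cdkn1a, the p53-induced inhibitor of the cell cycle, was at 10.90 to 12.25 and 12.98 to 14.29 (difference 1.90 ± 0.31 SE, adjusted p = 0.0440 by limma). Phlda3, an inhibitor of AKT signaling, was at 13.83 to 14.15 and 14.69 to 15.57 (difference 1.19 ± 0.19 SE, adjusted p = 0.0415 by limma). Eda2r, a receptor of the TNF receptor family, passed the threshold (adjusted p = 0.0326 by limma) with levels of 4.95 to 6.65 on the irradiated arrays, but it was well above background on 1 of 4 control arrays, so that the size of its difference was not measured.

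**Figure D5:**
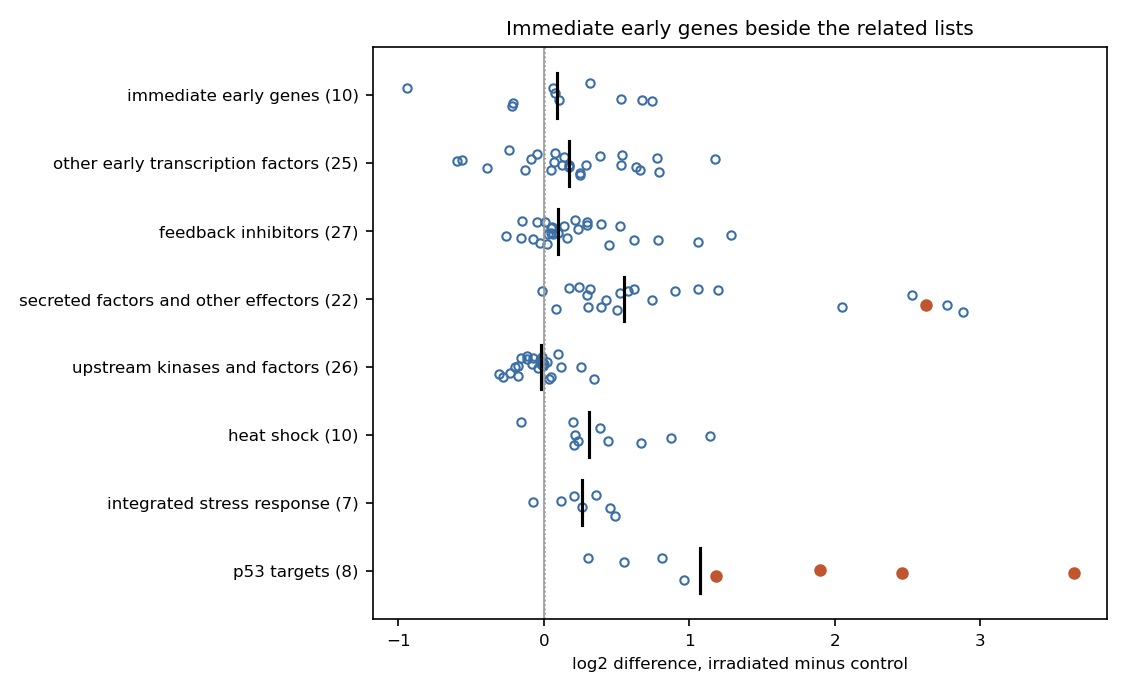
Log2 difference between irradiated and control arrays (horizontal axis) for each measured gene of the immediate early genes and the 7 related lists, with the number of genes in parentheses. Filled points passed the limma threshold, black bars are list medians and the dotted line is the median of all genes (0.01); the median is 0.09 for the immediate early genes, 0.55 for the effectors and 1.07 for the p53 targets.

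Cell type markers were set beside these values because a shift in tissue content moves bulk levels. The labeled tissue was checked by its markers, of which 5 of 5 type II and 4 of 4 type I alveolar markers were detected well above background on each of the 9 arrays. The summed type II level was 20.3 to 20.4 in the controls and 20.2 to 20.4 in the irradiated group in log2 units, and the type I level was 17.5 to 17.6 and 17.6 to 17.9, without overlap between the groups. Endothelial markers (6 of 6 on all arrays) were at 18.0 to 18.3 and 17.9 to 18.3, and macrophage markers (4 of 4 measured) at 17.1 to 18.4 and 17.6 to 18.4. Smooth muscle markers (5 of 5) were at 16.5 to 17.0 and 15.8 to 16.6, adipose markers (4 of 4) at 15.1 to 16.6 and 12.0 to 15.9, neutrophil markers (5 of 5) at 18.0 to 18.8 and 17.6 to 18.4, and mast cell markers (5 of 5) at 13.3 to 13.6 and 12.3 to 13.0. The mast cell sums did not overlap, but they rest on the brightest markers, and the mean over the 5 markers relative to the control mean did overlap, at -0.64 to 0.29 and -0.88 to 0.48. Skeletal muscle markers, of which 2 of 5 were well above background on every array, were at 10.6 to 16.6 on the control and 9.44 to 10.8 on the irradiated arrays, with control array 3 as the high one. Mesothelial markers (4 of 4) averaged -0.85, -0.85, 0.57 and 1.13 on control arrays 1 to 4 relative to the control mean, and Fos, Egr1 and Atf3 were likewise lower on control arrays 1 and 2 than on 3 and 4. On irradiated arrays 1 to 5 the mesothelial mean was 0.81, -0.54, -0.38, 0.31 and -0.89. It was highest on array 1, where Atf3 was lowest and Dusp1 highest among the irradiated arrays. On array 3, where Fos and Atf3 were highest, it was below the control mean. Egr1 was lowest on array 2 and highest on array 4, where the mesothelial mean was -0.54 and 0.31. The part of these shifts in the levels of the immediate early genes was not tested.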

How the data were processed

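RNA of 4 control and 5 irradiated lung samples was measured on single-color Agilent arrays. The authors deposited, per array, intensity values of the Feature Extraction software without normalization between arrays (background-subtracted processed signal, median signal, local background and spot marks), and a table of quantile-normalized intensity, which served as an alternative. Its rows were joined to the spots by image position. For the comparisons, outlier spots were dropped. A probe was kept where its signal exceeded 1.4 times that of its local background on 4 or more arrays, which left 39303 of 39429 probes. The log2 processed signal was quantile normalized, and repeated spots were averaged. Probes were named by accession through a RefSeq table (GRCm38.p6, 66.1% of probes), and a gene was represented by its brightest probe. Of the gene spots, 72.8% to 89.1% per array were well above background and none was saturated. Precision is limited by the number of arrays.

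Groups were compared with limma 3.58.1 in R 4.3.3 (intensity trend, no covariates, Benjamini-Hochberg over the probes kept, adjusted p under 0.05), after the script was tested on simulated data. Single genes were also compared by exact permutation of the group labels (two-sided, on the difference of means) in Python 3.11.15. The members and the lists were chosen with earlier results of these data known, so the list as a whole was not tested. The rule for named genes took the 10 members, up to 4 genes of each related list (past the threshold, then not overlapping, by size) and the 5 genes most correlated with the members. One gene that this rule names is not reported here. Alternatives were scaling to the 75th percentile, normexp on the median signal, the filter on all arrays or none, the deposited table, no trend, array weights, averaging the probes of a gene, an adjusted p under 0.1, blocks by replicate number and by scan pair, and leaving out each array. Same-numbered control and irradiated arrays did not deviate together (correlations -0.15 to 0.10). These values gave no sign that the numbers pair samples, but they cannot exclude it, and the labels do not state it.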

Additional observations from a re-analysis of the deposited data

Results flagged for a closer look

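Dixon's test marked 1 array as distant from the rest in 4 of 62 groups of values, and chance marks about 1 in 20. Egr2 was at 10.35 on irradiated array 1, against 11.08 to 11.31 on the other irradiated arrays. Myc was at 10.17 on irradiated array 3, against 9.53 to 9.62 on the others. Maff was at 12.70 on the same array, against 11.78 to 12.04. Ier5 was at 10.42 on irradiated array 4, against 10.58 to 10.64 on the others. Irradiated array 3 also held the highest mean of the 10 immediate early genes.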

How the results depend on the processing

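Of the 10 genes, Fos, Fosb, Jun, Junb, Egr2, Ier2 and Nr4a1 kept their direction under all 20 alternatives. These were not 20 separate checks, since no filter, no trend and averaging probes left the differences as they were. The scan pair block gave the same differences as leaving out irradiated array 1, and the replicate block the same as leaving out irradiated array 5. The direction turned for Egr1 without control array 1 (-0.10) or control array 2 (-0.09), and for Atf3 without control array 2 (-0.20), irradiated array 3 (-0.07) or irradiated array 4 (-0.01). It turned for Dusp1 with the scan pair block (-0.026), which leaves out irradiated array 1, and without control array 1 (-0.054), irradiated array 1 (-0.026) or irradiated array 3 (-0.015). When single arrays were left out, the differences reached up to 0.376 for Egr1, 0.365 for Atf3 and 0.192 for Dusp1. Fosb differed by -0.058 and Atf3 by 0.292 with the scan pair block, and Egr1 by 0.023 in the deposited normalized table. The cause was not tested. The number of the 10 genes past the threshold was 0 to 1 when single arrays were left out. The 1 was Egr2 without irradiated array 1, in a fit that called 1.65% of all genes. The number was 2 with the scan pair as a random block (Egr2 and Nr4a1), where 9.45% of all genes were called. The number whose groups did not overlap was 0 to 1 when single arrays were left out and 1 with the scan pair block. The gene was Nr4a1 without control array 1 or irradiated array 3, Ier2 without control array 4 and Junb without irradiated array 4. It was Egr2 without irradiated array 1 and with the scan pair block, which leaves out that array. The matching share of all genes, 5.15%, was counted on the 9 arrays only, and fewer arrays are easier to separate. In the reported fit 5 related genes passed the threshold, with 0.416% of all genes called. The count was 2 without an intensity trend (0.0863% of all genes) and 1 with the replicate block (0.00508%). It was 18 with the scan pair block (3.82%) and 44 with the scan pair random block (9.45%). When single arrays were left out it was 2 to 14 (0.0254% to 1.65%). With the replicate number as a block, Nr4a1 differed by -0.99 (limma adjusted p = 0.325) and Egr2 by 0.63 (0.538), 0 of the 10 passed, and 1 gene was called over the whole array against 82. Each member had 1 named probe, so averaging probes left its value as it was. Depth limits little here, as all 10 genes were well above background on every array.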
